A study of Homo sapiens with 6 samples.

Results

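The 10 genes described here belong to double-stranded RNA sensing and were followed through Hep3B cells with and without a hairpin against DAGLA. They were IFIH1, DDX58 and DHX58 (the RIG-I-like receptors), TLR3, EIF2AK2, the adaptor MAVS, the kinase TBK1, the transcription factors IRF3 and IRF7, and the RNA-editing enzyme ADAR. Members were taken by symbol, as the rows of the FPKM table whose Ensembl identifier carries that symbol in GENCODE release 29, with RIG-I under its older symbol DDX58. All 10 were among the 29908 genes of the table, and 8 of them were among the 14221 genes that averaged 0.5 FPKM or more across all 6 libraries. FPKM scales the reads of a gene to its exon length and to the reads of the library. DHX58 and TLR3 averaged less.

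Double-stranded RNA is sensed in the cytosol by the helicases RIG-I and MDA5, and in the endosome by TLR3. RIG-I prefers short duplexes with a triphosphate at the end, and MDA5 prefers long duplexes. Both pass the signal to MAVS on the outer mitochondrial membrane. From there TBK1 phosphorylates IRF3 and IRF7, and the interferon genes are switched on. PKR, encoded by EIF2AK2, instead halts translation by phosphorylating eIF2-alpha, and ADAR edits adenosines in cellular duplexes, which keeps MDA5 and PKR from responding to them. Hepatocytes and many hepatoma lines carry this machinery, and most of its sensors are themselves interferon-stimulated.

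Hep3B is an established human hepatocellular carcinoma line. Both groups received lentivirus at a multiplicity of infection of 5 and were selected with puromycin. Hep3B-KD cells (3 libraries) carried a hairpin against DAGLA, which encodes diacylglycerol lipase alpha, the enzyme that makes the endocannabinoid 2-arachidonoylglycerol. Hep3B-Con cells (3 libraries) carried a control, which the sample titles give as a control hairpin and the design text of the series as an empty vector. With 1 hairpin, the loss of DAGLA and any other effect of that hairpin cannot be told apart. The labels call the 3 samples of a group biological replicates without saying whether they are separate infections, so that p-values measure the spread between these samples. The hairpin is shown because it defines the comparison, with bases 2 to 8 of the guide strand (the seed) in capitals.
shDAGLA target: gcgacaacaaggccttcaa
shDAGLA guide strand: tTGAAGGCcttgttgtcgc
The target lies in coding exon 18 of 20 of transcript DAGLA-201 (GRCh38, chr11:61740504-61740522, plus strand), and no other gene's GENCODE transcripts held all 19 bases.

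Reads recovered from the FPKM values and exon lengths summed to 16644962 to 17572714 per library in Hep3B-Con and 15861039 to 16593115 in Hep3B-KD. DAGLA fell by 0.99 on the log2 scale (limma, adjusted p = 5.25e-06), with Hep3B-Con at 9.28 ± 0.228 FPKM and Hep3B-KD at 4.62 ± 0.164 FPKM (SD, n = 3 each). All 12 hepatocyte markers passed the filter, as the label of a liver cell line has it, and their summed level was 4879 to 4993 FPKM in Hep3B-Con. That sum was 7391 to 7501 FPKM in Hep3B-KD. Most of both sums was ALB (mean 2042 FPKM in Hep3B-Con, 3315 in Hep3B-KD) and APOA2 (2135 and 2808). At an adjusted p under 0.05 (limma), 9 markers were higher, against 36.1% of all genes tested. HNF4A and FGB, 2 markers, were lower, against 23.8%. Leukocyte markers summed to 2.83 to 4.47 FPKM in Hep3B-Con and 4.13 to 4.83 in Hep3B-KD. PTPRC was at 0.0377 FPKM or less in every library, but LYZ and CD14 passed the filter. LYZ was at 2.63 ± 0.536 FPKM in Hep3B-Con and 3.51 ± 0.492 in Hep3B-KD (SD, n = 3 each). CD14 was at 1.08 ± 0.286 and 0.862 ± 0.0863 FPKM (SD, n = 3 each). Endothelial markers summed to 0.194 to 0.217 against 0.268 to 0.385 FPKM, and fibroblast or stellate markers to 3.45 to 3.74 against 2.44 to 2.48 FPKM. The part of these shifts in the results below was not tested.

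Of the 8 members tested, 5 were higher in Hep3B-KD at an adjusted p under 0.05 (limma on log2(FPKM + 0.1), Benjamini-Hochberg over all genes), against 36.1% of all genes tested, and 2 were lower, against 23.8%. The sensors IFIH1, DDX58 and EIF2AK2, the kinase TBK1 and ADAR rose, MAVS and IRF3 fell, and IRF7 did not pass. With a fold of at least 2 as well, 2 members were higher, against 5.89% of genes, and 0 were lower, against 2.94%. The count of 0 does not depend on the p threshold, since no member fell by 2-fold. The lowest, IRF3, had a log2 fold change of -0.61, and -0.71 at the lowest over 17 alternative settings. For 5 of the 8 every Hep3B-KD value lay above every Hep3B-Con value, against 40.7% of genes, and for 2 every value lay below, against 26.3%. Many genes moved in this comparison, so being called is common here and says little of a single gene. The median log2 fold change was 0.21 over the 8 members and 0.11 over all 14221 genes. Positive log2 fold changes mean more RNA in Hep3B-KD, and the added 0.1 FPKM makes changes of low genes look smaller than they are. For each non-overlapping member the exact two-sided permutation test gave p = 0.1, the smallest that 3 libraries against 3 allow.

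**Figure D1:**
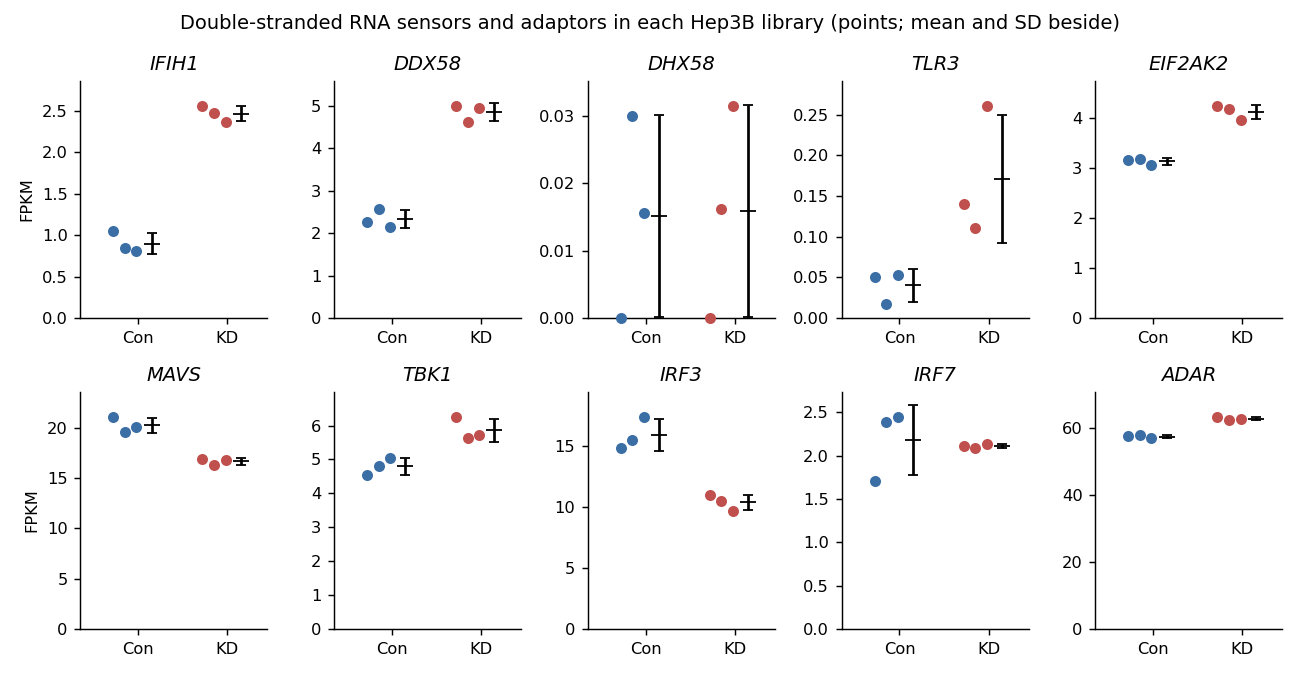
FPKM of each member in the 3 Hep3B-Con (Con, blue) and 3 Hep3B-KD (KD, red) libraries, each panel on its own linear axis from 0, with the mean and SD as a bar beside the points. The groups are apart for IFIH1, DDX58, TLR3, EIF2AK2, MAVS, TBK1, IRF3 and ADAR and overlap for DHX58 and IRF7.

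IFIH1 (ENSG00000115267, chr2:162267079-162318703, minus strand, GRCh38) encodes MDA5, the sensor of long duplexes. It was at 1.05, 0.845 and 0.812 FPKM in Hep3B-Con replicates 1 to 3 and at 2.55, 2.47 and 2.37 FPKM in Hep3B-KD replicates 1 to 3. The lowest Hep3B-KD library was thus above the highest Hep3B-Con library, and the spread within each group was small beside the gap. Its mean went from 0.901 ± 0.128 to 2.47 ± 0.092 FPKM (SD, n = 3 each). The log2 fold change was 1.37 (standard error 0.118, limma, adjusted p = 8.81e-05), and 2.88% of all genes tested had a larger one. With a pseudocount of 1, which damps low genes most, it was 0.87 and passed the adjusted p but not a fold of 2. Behind these values stood 69 to 94 reads per library in Hep3B-Con and 201 to 207 in Hep3B-KD. In bulk samples a change in RNA per cell and a change in how many cells carry the RNA cannot be told apart.

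DDX58 (ENSG00000107201, chr9:32455705-32526324, minus strand, GRCh38) encodes RIG-I, the sensor of short duplexes with a triphosphate end. It was at 2.27, 2.58 and 2.15 FPKM in the Hep3B-Con libraries and at 4.98, 4.61 and 4.96 FPKM in the Hep3B-KD libraries, so that the groups did not overlap. The means were 2.33 ± 0.218 and 4.85 ± 0.210 FPKM (SD, n = 3 each), from 156 to 195 and 322 to 358 reads per library. The log2 fold change was 1.03 (standard error 0.0799, limma, adjusted p = 5.40e-05), with 6.69% of all genes above it. It stood close to the 2-fold line, with a 95% interval of 0.83 to 1.22, and over 17 alternative settings it ranged from 0.81 to 1.10. It was under 1, past the adjusted p threshold but not past a fold of 2, with a pseudocount of 1 (0.81), after quantile normalization (0.84), after centring of the libraries on their median log ratio (0.92) and without Hep3B-Con replicate 3 (0.97).

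The IFIH1 to DDX58 ratio of FPKM lay between 0.328 and 0.460 in Hep3B-Con and between 0.478 and 0.537 in Hep3B-KD. All 3 Hep3B-KD ratios were thus above all 3 Hep3B-Con ratios, by 0.40 on the log2 scale (exact permutation test, p = 0.1). RIG-I RNA stayed the higher of the pair in all 6 libraries.

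DHX58 (ENSG00000108771, chr17:42101404-42112733, minus strand, GRCh38) encodes LGP2, the third RIG-I-like receptor, which lacks the signalling domains and modulates the others. It had 0, 2 and 1 reads in the Hep3B-Con libraries and 0, 1 and 2 in the Hep3B-KD libraries, or 0 to 0.0314 FPKM. Every library was at or under the floor of 3 reads, so no fold is given. A difference between the groups was not detectable at this depth.

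The promoters of IFIH1 and DDX58 are shown because, of the members past the 0.5 FPKM filter, these rose the most. Each runs from 250 bases before to 50 bases after the start site in RefSeq (GRCh38.p14), on the strand of the gene.
IFIH1 promoter, chr2:162318635-162318934, minus strand: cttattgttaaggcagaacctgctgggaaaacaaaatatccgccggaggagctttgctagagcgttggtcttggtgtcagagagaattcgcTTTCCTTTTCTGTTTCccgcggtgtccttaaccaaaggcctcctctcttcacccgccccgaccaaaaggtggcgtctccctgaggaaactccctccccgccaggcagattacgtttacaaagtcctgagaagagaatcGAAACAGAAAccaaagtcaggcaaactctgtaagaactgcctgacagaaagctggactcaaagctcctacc
DDX58 promoter, chr9:32526147-32526446, minus strand: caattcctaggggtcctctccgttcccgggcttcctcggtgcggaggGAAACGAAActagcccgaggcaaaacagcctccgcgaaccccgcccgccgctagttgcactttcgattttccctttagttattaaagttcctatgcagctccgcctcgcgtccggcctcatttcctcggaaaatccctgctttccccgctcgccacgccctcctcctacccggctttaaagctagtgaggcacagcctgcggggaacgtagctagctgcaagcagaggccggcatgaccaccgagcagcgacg
Capitals in IFIH1 mark the core of the interferon-stimulated response element, searched as GAAA, any 2 bases, GAAA on both strands. Capitals in DDX58 mark the same word pair with a gap of 1 base, a search added after the promoters had been seen. Bases are counted from the start site as base 1, with base -1 just before it. IFIH1 held 3 matches with the 2-base gap. A pair of them overlapped on the opposite strand, from base -159 to -150 and from -153 to -144, and 1 stood on the gene's strand at -21 to -12. DDX58 held none with the 2-base gap and 1 with the 1-base gap, at -203 to -195.

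TLR3 (ENSG00000164342, chr4:186069152-186088069, plus strand, GRCh38) encodes the endosomal sensor, which signals through TICAM1 in place of MAVS. It was at 0.0508, 0.0171 and 0.0536 FPKM in Hep3B-Con and at 0.141, 0.111 and 0.260 FPKM in Hep3B-KD, all below the 0.5 FPKM filter. The counts were 6, 2 and 6 reads against 15, 12 and 29, which do not overlap and sum to 14 and 56. Hep3B-Con replicate 2, with 2 reads, was under the floor of 3 reads per library. In the fit without the filter the log2 fold change was 0.92 (standard error 0.296, limma, adjusted p = 0.0678), so that TLR3 did not pass. Its level was lower than that of IFIH1 in every library.

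EIF2AK2 (ENSG00000055332, chr2:37099210-37157065, minus strand, GRCh38) encodes PKR. It was at 3.15, 3.18 and 3.05 FPKM in Hep3B-Con and at 4.23, 4.18 and 3.96 FPKM in Hep3B-KD, with each group narrow and no overlap. The means were 3.13 ± 0.0698 and 4.12 ± 0.141 FPKM (SD, n = 3 each). PKR RNA rose by 0.39 on the log2 scale (standard error 0.053, limma, adjusted p = 0.000782), and 29.8% of all genes had a larger log2 fold change. After quantile normalization it was 0.22, still past the threshold (limma, adjusted p = 0.00985). DDX58 was below EIF2AK2 in every Hep3B-Con library, with a ratio of 0.706 to 0.810, and above it in every Hep3B-KD library, with a ratio of 1.10 to 1.25. On the opposite strand EIF2AK2 shares 35 exon bases with GPATCH11 (0.325% of its exon length) and 401 with a pseudogene. Whether reads were counted by strand is not given in the sources used here.

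The start regions of EIF2AK2 and TLR3 are shown because the same core sits across the start site in both, and each is given as the last 100 bases of its window with the core in capitals.
EIF2AK2, chr2:37156931-37157030, minus strand: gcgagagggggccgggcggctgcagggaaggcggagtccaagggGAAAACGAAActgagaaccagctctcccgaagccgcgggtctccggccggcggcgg
TLR3, chr4:186069106-186069205, plus strand: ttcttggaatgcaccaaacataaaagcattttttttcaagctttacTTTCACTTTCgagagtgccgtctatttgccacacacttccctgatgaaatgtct
In EIF2AK2 the match lay on the gene's strand from -6 to 4, and in TLR3 on the opposite strand from -4 to 6. Promoters were matched for 7 members, in 9 windows, of which ADAR had 3. The 2-base gap core was held by 3 of these members, IFIH1, EIF2AK2 and TLR3, and the windows of DDX58, MAVS, TBK1 and ADAR held none. Among all 35116 promoters of this length 3.57% held it, and among the 13599 promoters of genes tested 2.62%. For the 1-base gap the shares were 3.12% and 2.36%. DHX58, IRF3 and IRF7 were not matched. A match is a string of letters in a window and no measurement of binding.

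MAVS (ENSG00000088888, chr20:3846799-3876123, plus strand, GRCh38) is the adaptor on which RIG-I and MDA5 converge. It was at 21.0, 19.6 and 20.1 FPKM in Hep3B-Con and at 16.8, 16.3 and 16.8 FPKM in Hep3B-KD, with all 3 Hep3B-KD libraries below all 3 Hep3B-Con libraries. The mean fell from 20.2 ± 0.747 to 16.6 ± 0.304 FPKM (SD, n = 3 each), from 3933 to 4352 and 3079 to 3276 reads per library. The log2 fold change was -0.28 (standard error 0.0352, limma, adjusted p = 0.00052), and 78.8% of all genes had a larger one. The ratio of IFIH1 to MAVS lay between 0.0404 and 0.0498 in Hep3B-Con and between 0.141 and 0.152 in Hep3B-KD, a log2 difference of 1.74 (exact permutation test, p = 0.1). The adaptor nonetheless stayed above each receptor in every library.

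Of the 10 members, MAVS was the 1 whose longest 3′ UTR in GENCODE holds the match to the hairpin's seed. It lies at bases 6597 to 6603 of a 3′ UTR of 9976 bases in transcript MAVS-201, and is shown with the match in capitals.
MAVS 3′ UTR, bases around the seed match: acactatgagtGCCTTCAagtggttgggg
Of 11189 genes tested with a 3′ UTR of at least 50 bases, 14.6% hold such a match. That share is not adjusted for length, and a longer 3′ UTR offers more places for a match. MAVS had the longest 3′ UTR of the members, beside 8063 bases for EIF2AK2, 92 for IRF7 and 78 for IRF3. Whether the hairpin acts on MAVS RNA was not tested.

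TBK1 (ENSG00000183735, chr12:64451880-64502108, plus strand, GRCh38) is the kinase recruited to MAVS and TICAM1. It was at 4.54, 4.80 and 5.05 FPKM in Hep3B-Con and at 6.25, 5.62 and 5.72 FPKM in Hep3B-KD, with no overlap. The means were 4.79 ± 0.253 and 5.86 ± 0.337 FPKM (SD, n = 3 each). TBK1 thereby rose by 0.28 on the log2 scale (standard error 0.0623, limma, adjusted p = 0.00688). After quantile normalization the log2 fold change was 0.15 and no longer passed (limma, adjusted p = 0.103). TBK1 shares 702 exon bases (14.7%) with an antisense gene, AC135279.3, whose mean level was 0.0218 FPKM.

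IRF3 (ENSG00000126456, chr19:49659569-49665875, minus strand, GRCh38) encodes the constitutive transcription factor that TBK1 phosphorylates. It was at 14.9, 15.5 and 17.4 FPKM in Hep3B-Con and at 10.97, 10.5 and 9.69 FPKM in Hep3B-KD, so that the highest Hep3B-KD library stood well under the lowest Hep3B-Con library. The mean fell from 15.9 ± 1.30 to 10.4 ± 0.647 FPKM (SD, n = 3 each). On the log2 scale the change was -0.61 (standard error 0.071, limma, adjusted p = 0.000353), and 91.0% of all genes had a larger one. The ratio of TBK1 to IRF3 was 0.290 to 0.309 in Hep3B-Con and 0.535 to 0.590 in Hep3B-KD.

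IRF3 overlaps BCL2L12, a gene on the opposite strand, over 734 exon bases, or 19.3% of its exon length. BCL2L12 itself fell, from 37.5 ± 2.24 to 22.2 ± 0.916 FPKM (SD, n = 3 each), which on the log2 scale is a difference of -0.75 (standard error 0.0507, limma, adjusted p = 2.87e-05). The ratio of IRF3 to BCL2L12 lay between 0.371 and 0.479 in Hep3B-Con and between 0.454 and 0.494 in Hep3B-KD, and these ranges overlap (exact permutation test, p = 0.3). Without strand, reads of the shared exons cannot be told apart, and their part in the fall of IRF3 was not tested.

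IRF7 (ENSG00000185507, chr11:612553-615999, minus strand, GRCh38) encodes the inducible relative of IRF3, which amplifies interferon production. It was at 1.71, 2.39 and 2.45 FPKM in Hep3B-Con and at 2.11, 2.08 and 2.13 FPKM in Hep3B-KD, where the 3 Hep3B-KD values fall inside the Hep3B-Con range. The log2 fold change was -0.029 with a 95% interval of -0.36 to 0.31 (limma, adjusted p = 0.871). Hep3B-Con replicate 1 was the low library of its group, and leaving out replicate 2 or 3 turned the sign, to 0.041 and 0.059.

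ADAR (ENSG00000160710, chr1:154582057-154628013, minus strand, GRCh38) was the most abundant member. It was at 57.5, 57.9 and 56.9 FPKM in Hep3B-Con and at 63.2, 62.5 and 62.6 FPKM in Hep3B-KD. The step was small but wider than the spread, with means of 57.4 ± 0.518 and 62.8 ± 0.402 FPKM (SD, n = 3 each). ADAR rose by 0.13 on the log2 scale (standard error 0.0178, limma, adjusted p = 0.000815), near the median of all genes, with 48.5% of genes above it. After centring of the libraries on their median log ratio it was 0.025 and did not pass (limma, adjusted p = 0.263), and in the other 16 alternatives it passed.

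**Figure D2:**
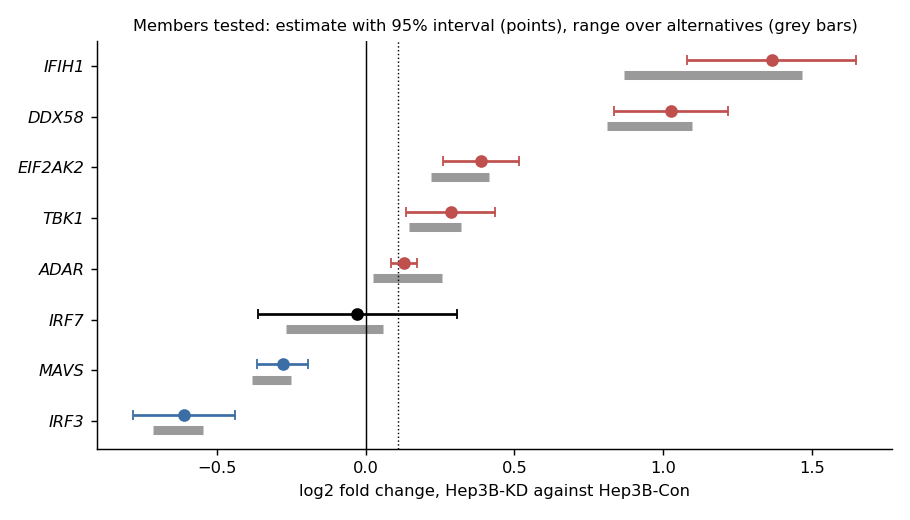
Log2 fold change of the 8 members tested (points, with 95% intervals from limma; red rose, blue fell, black not past the threshold) and the range over the 17 alternative settings (grey bars). The dotted line is the median of all genes, 0.11. IFIH1 at 1.37 and DDX58 at 1.03 stand apart from the other members, which lie between -0.61 and 0.39.

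By level per length the order in Hep3B-Con was ADAR, MAVS, IRF3, TBK1, EIF2AK2, DDX58, IRF7, IFIH1, TLR3 and DHX58. DDX58 and IRF7 overlapped there, with DDX58 higher in 2 of 3 libraries, as did TLR3 and DHX58. In Hep3B-KD the top 4 kept their places, DDX58 stood above EIF2AK2, and IFIH1 stood above IRF7. No neighbours in the Hep3B-KD order had overlapping ranges.

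Genes around the members were counted by list. Among all genes tested 36.1% were higher and 23.8% lower at the same threshold, and several list counts lie near these shares. Centred on the median log ratio, 4064 of the 14221 genes were higher and 4308 lower. Of the 20 cofactors and regulators of RIG-I-like receptors, 17 were tested, with 8 higher and 2 lower, and the list median was 0.083 in log2 fold change, beside 0.11 for all genes. ZC3HAV1, a zinc-finger antiviral protein, rose by 0.49 and RIOK3, a kinase of this pathway, by 0.46, while TRIM65, a ubiquitin ligase for MDA5, fell by 0.60 and the phosphatase subunit PPP1CA by 0.15, whose sign turned under quantile normalization. TRIM25, the ligase tied to RIG-I, was at 0.054 and did not pass (limma, adjusted p = 0.305). DDX60, a helicase cofactor, was under the filter. The direction of the list moved with the scaling: centred on the median log ratio 4 were higher and 5 lower. Rescaled to the same FPKM sum 10 were higher and 2 lower, and after quantile normalization 10 and 1.

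Of the 20 genes between the adaptors and the kinases, all were tested, with 6 higher and 7 lower (list median -0.025). CHUK, which encodes IKK-alpha, fell from 8.67 ± 0.213 to 3.95 ± 0.0482 FPKM (SD, n = 3 each), by 1.11 on the log2 scale (limma, adjusted p = 2.36e-06), and was the gene of this list past a fold of 2. The NF-kappaB subunits RELA and NFKB1 fell by 0.48 and 0.41, the kinase RIPK1 by 0.47, the protease CASP10 by 0.61 and the TLR3 adaptor TICAM1 by 0.23. NFKBIA, the inhibitor of NF-kappaB, rose by 0.51, the TBK1-binding protein TBKBP1 by 0.38 and the ligase TRAF6 by 0.33, and the call of TBKBP1 was lost in 1 alternative. FADD had a log2 fold change of 0.75 and did not pass (limma, adjusted p = 0.205), with values from 5.09 to 14.4 FPKM within Hep3B-Con. Centring gave 4 higher and 9 lower.

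Of the 14 partners of PKR and genes of eIF2-alpha phosphorylation, all tested, 4 were higher and 5 lower (list median -0.046). The kinase EIF2AK3, known as PERK, fell by 0.51 and EIF2B3, a subunit of the exchange factor, by 0.31, the latter call being lost in 8 alternatives. The phosphatase subunit PPP1R15B rose by 0.55, and EIF2S1, which encodes eIF2-alpha, by 0.24. PPP1R15A, the other phosphatase subunit of the list, fell by 0.29, a call kept in every alternative. PRKRA and TARBP2, which bind PKR, were at 0.033 and -0.012 and did not pass. Centring gave 2 higher and 7 lower. Among the oligoadenylate synthetases, which duplex RNA activates, OAS3 rose by 0.58, a call lost in 8 of the 17 alternatives. ABCE1, a factor of ribosome recycling, fell by 0.29. OAS1, OAS2 and OASL were at 0.0708 FPKM or less in every library.

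Among 18 genes of RNA editing and duplex binding or decay, 17 were matched and 15 tested, with 8 higher and 5 lower (list median 0.083). DICER1, the nuclease that cuts duplexes to small RNAs, rose by 0.79, from 7.20 ± 0.512 to 12.5 ± 0.0474 FPKM (SD, n = 3 each), and TTC37, of the Ski complex, by 0.69. The tRNA editing enzyme ADAT1 fell by 0.42, the mitochondrial RNA nuclease PNPT1 by 0.24 and ADARB1, the other active editor of duplexes, by 0.20, a call lost in 2 alternatives. Centring gave 5 higher and 6 lower, rescaling to the same FPKM sum 9 and 4, and quantile normalization 8 and 4.

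The other Toll-like receptors and adaptors had 5 of 12 matched genes tested, of which MYD88 fell by 0.20, a call lost in 5 alternatives, and 4 did not pass. No receptor was among the 5 tested. All matched receptors were under the filter, at 0.394 FPKM or less in every library. TLR5, TLR6 and TLR10 were higher in all Hep3B-KD libraries, from 11 reads or fewer per library, while TLR1, TLR2 and TLR7 overlapped between the groups. Of 9 other interferon regulatory factors 6 were tested. IRF8, best known from myeloid cells, fell from 1.67 ± 0.108 to 0.508 ± 0.119 FPKM (SD, n = 3 each), by 1.56 on the log2 scale (limma, adjusted p = 0.000385). IRF2 rose by 0.24, a call lost in 9 alternatives. Of the 9 matched genes of cytosolic DNA sensing 5 were tested, of which 3 fell, among them RNASEH2C by 0.38 and DDX41 by 0.18, and 2 did not pass. CGAS and TMEM173, which encode cGAS and STING, were at 0.12 FPKM or less in every library.

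Of 19 genes of interferons, their receptors and JAK-STAT, 11 were matched and 9 tested, with 7 higher and 1 lower (list median 0.49). The interferon genes of the list were not matched. The receptor subunits IFNAR2 and IL10RB were under the filter, at 0.175 and 0.225 FPKM in their highest library. JAK2 rose by 0.97, from 0.654 ± 0.0479 to 1.38 ± 0.0647 FPKM (SD, n = 3 each). STAT2 rose by 0.75, the receptor subunit IFNAR1 by 0.72, JAK1 by 0.59 and IFNGR1 by 0.49, while IFNGR2 fell by 0.21, a call lost in 2 alternatives, 1 of them the fit without Hep3B-KD replicate 1. Centring gave 6 higher and 1 lower.

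Of 35 interferon-stimulated genes 31 were matched and 15 tested, with 9 higher and 1 lower (list median 0.31). The chemokine CXCL10 was listed at 0, 0.391 and 0.409 FPKM in Hep3B-Con and at 1.93, 2.17 and 2.36 FPKM in Hep3B-KD, from 0, 8 and 8 reads against 36, 41 and 46. CXCL10 passed the 0.5 FPKM filter only through Hep3B-KD, with means of 0.267 FPKM in Hep3B-Con and 2.15 in Hep3B-KD. Hep3B-Con replicate 1, with 0 reads, was at the floor. The log2 fold change of 2.94 rests on these low levels and is given as a value only, though CXCL10 is among the 9 counted higher. PARP14, an ADP-ribosyltransferase, rose from 0.565 ± 0.028 to 1.57 ± 0.131 FPKM (SD, n = 3 each), by 1.32 on the log2 scale (limma, adjusted p = 0.000191). PARP9 rose by 0.77, the ISG15 protease USP18 by 0.55, IFITM3 by 0.52 and ISG15 by 0.31, while the secreted protein LGALS3BP fell by 0.49. The other 16 were under the filter, among them IFIT1 at 0.183, IFIT2 at 0.446, IFIT3 at 0.502 and MX1 at 0.212 FPKM in their highest library. Mean FPKM in Hep3B-Con and Hep3B-KD was 0.0302 and 0.142 for IFIT1, 0.145 and 0.358 for IFIT2, and 0.169 and 0.405 for IFIT3. In these genes all Hep3B-KD values lay above all Hep3B-Con values, from 29 reads or fewer per library. Most of the 16, MX1 among them, overlapped between the groups. Centring or quantile normalization gave 7 higher and 4 lower.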

How the data were processed

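RNA of 6 samples was sequenced, 3 of Hep3B-Con and 3 of Hep3B-KD cells, and samples were assigned to groups from their titles. The authors deposited FPKM values for 29908 Ensembl genes, in 1 table with 1 column per library and 0 columns without a sample. The submitters' processing notes name TopHat2 2.0.12, Bowtie2 2.0.6 and the build GRCh37, whereas all identifiers were found in GENCODE release 29 (GRCh38). The counting tool, its annotation and its strand setting are not given in the sources used here. With the exon lengths of that release 100% of the values above 0 came out as whole reads (tolerance 0.01). The library totals were recovered in the same step and equal the sums of these reads. They count reads assigned to genes of the table, not all reads sequenced. Coordinates of genes are those of the release. Counts of reads limit the precision of low members, and a library with 3 or fewer reads of a gene was treated as at the floor, for counting error only.

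Values were analysed as log2(FPKM + 0.1) with limma 3.58.1 in R 4.3.3 (lmFit, eBayes with a trend) over 14221 genes (those averaging 0.5 FPKM or more), with Benjamini-Hochberg adjustment. Single values were also set to exact permutation tests of 3 against 3. All members were named, and of each list at least the 2 largest rises and falls past an adjusted p of 0.05 and, where at most 6 passed a fold of 2, all of those. The members, the lists and the tests were chosen with earlier results of these data known, and some list genes are not reported here. Pairs of replicates differed by more than counting noise (chi-square per gene 1.8 to 3.3). The same fit was tested on simulated reads for this comparison. At a dispersion of 0.01 it recovered 91% of 100 genes changed 2-fold and 98% of 100 changed 4-fold, with 10 false calls among 14185 genes. At a dispersion of 0.1 it recovered 10% and 64%, with 8 false calls among 14189. The changed genes averaged at least 1 FPKM and were split evenly between rises and falls. In the data far more genes were called, 5133 higher and 3388 lower, and neither dispersion was estimated from these libraries. The simulated rates therefore need not hold for this comparison. The 17 alternatives were the filter dropped or raised to 1 FPKM, a pseudocount of 1 or 0.01, libraries rescaled to a common FPKM sum, centred on their median log ratio or quantile normalized, the replicate number as a block, a linear model per gene with ordinary variances, eBayes with no trend, voom on recovered reads, and the removal of 1 library at a time. The hairpin sequence came from the study's list of transfection sequences, transcripts from GENCODE and promoters from RefSeq. Tables were handled in Python 3.11.15 with pandas 2.3.3 and numpy 2.4.6, and figures drawn with matplotlib 3.10.9.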

Additional observations from a re-analysis of the deposited data

How the results depend on the processing

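Of 136 refitted fold changes of the 8 members tested, 132 kept their direction and their side of the adjusted p threshold. The exceptions were TBK1 under quantile normalization (0.15), ADAR when centred on the median log ratio (0.025), and IRF7, which was not past the threshold and ran from -0.19 to 0.059 as libraries were left out, turning sign without Hep3B-Con replicate 2 (0.041) or replicate 3 (0.059). The count of members higher by at least 2-fold, 2 as reported, was 0 with a pseudocount of 1, which shrinks low genes by its construction. It was 1 after centring, 1 after quantile normalization, and between 1 and 2 when each library was left out in turn, with 1 without Hep3B-Con replicate 3. The counts of all genes past 2-fold, 838 higher and 418 lower, became 255 and 248 with a pseudocount of 1, and 477 and 587 after quantile normalization. Centring left a median log2 fold change of 0.0059 and gave 28 list genes higher in place of 44. The split of all called genes, 5133 higher and 3388 lower, became 4064 and 4308 after centring and 4270 and 3902 after quantile normalization. Of 170 counts of called genes per list, 142 stayed within 1.5 times the reported count, and the others belonged to lists with 1 or 2 calls. Same-numbered replicates did not deviate together (correlations of -0.0134, -0.0656 and -0.0011). These values gave no sign of pairing by number, but they cannot show whether same-numbered samples were handled together. With the replicate number as a block the calls were 4766 higher and 3153 lower, and no call of a member changed. Depth limits DHX58 and TLR3, which had at most 2 and 29 reads per library.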
